A study of Capra hircus with 6 samples.

Results

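Collagens are the triple-helical proteins of the extracellular matrix. Fibrillar collagens such as types I, III and V build the fibres of connective tissue, type IV forms the network of basement membranes, and the remaining types decorate fibrils, form beaded filaments or short networks, or span the cell membrane. In brain tissue, fibrillar collagens are known mainly from the meninges and the walls of larger vessels, and type IV collagen from the basement membrane around vessels and under the pial surface. The collagen genes were taken by name from a table of mRNA expression of goat hypothalamus, as all genes whose NCBI goat symbol is COL, a number, A and a number. There were 43 such genes among 20225 in the table, comprising 10 fibrillar collagens, 6 basement membrane collagens (COL4A1 to COL4A6) and 27 others. Of the 43 genes, 41 passed a minimum mean of 0.1 FPKM and were tested. COL20A1 and COL6A6, with means of 0.0485 and 0.0467 FPKM, did not pass, and the lowest member that did was COL6A5 with 0.395 FPKM. COL5A1 was not analysed here. No value was used to choose the genes, but the family was put forward with results of these data known, so the p-values below are given as a description.

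The hypothalamus was taken from 3 pubertal female Anhuai goats, aged 4.5 to 5 months and killed in the late follicular phase, and from 3 prepubertal females aged 2.5 to 3 months, with 1 RNA library for each goat. No treatment of the goats is described other than pentobarbital anesthesia before they were killed. The stages differed in age and body weight as well as in puberty. Expression was deposited as FPKM, fragments scaled by transcript length and by the mapped fragments of the library, and was summed here over the transcripts of each gene. The depth behind single values is unknown, as the tables hold no read counts. The comparison of stages used limma with log2(FPKM + 1) of all 16397 genes with a mean of at least 0.1 FPKM, with p-values adjusted over all of them by the Benjamini-Hochberg method. The log2 fold changes below are pubertal minus prepubertal on this scale, which understates the change of low genes.

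Whether the libraries hold other tissue was looked at first. PMCH, the melanin-concentrating hormone precursor of the lateral hypothalamus, lay between 673 and 2173 FPKM in the 6 libraries, while AVP was listed at 0 in all of them, and HCRT, OXT, TRH, NKX2-1 and RAX were not matched by symbol. Pubertal replicate 3 stood apart from the rest. TTR, the transthyretin gene of the choroid plexus, reached 309 FPKM there, while the other 5 libraries spanned 1.14 to 53.4 FPKM. The sum of 16 leptomeningeal fibroblast markers was 291 FPKM there, against 80.0 to 91.2 FPKM in the other libraries. Of this sum, PDGFRA, also a gene of oligodendrocyte precursors, held 52.1 to 59.4 FPKM in every library. The sum of 12 pericyte and smooth muscle markers was 386 FPKM in pubertal replicate 3, against 100.03 to 149.8 FPKM in the others. The counts and the fold changes that moved most with this library are also given without it. In whole tissue, fewer cells of a type and less RNA per cell cannot be told apart.

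Chains of type IX, a collagen that sits on the surface of fibrils, and COL1A2, a chain of type I, were among the most abundant collagen mRNAs. COL9A2 had a mean of 74.3 FPKM over the 6 libraries, COL9A3 49.1 FPKM, COL1A2 40.003 FPKM and COL9A1 18.7 FPKM. The order differed between libraries, and in pubertal replicate 3 COL1A2 was the highest, at 94.4 FPKM against 81.8 FPKM for COL9A2. Together the type IX chains made up between 26.5% and 46.4% of the summed collagen FPKM of a library. In all, 11 collagen genes had a mean of at least 10 FPKM and 8 had a mean under 1 FPKM, so the family spanned a wide range of levels. The 43 genes summed to 359, 392 and 571 FPKM in pubertal replicates 1, 2 and 3, and to 289, 302 and 358 FPKM in prepubertal replicates 1, 2 and 3. The lowest pubertal library thus lay just above the highest prepubertal one.

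Most collagen genes had higher values in the pubertal goats, with no single gene past the adjusted threshold. Of the 41 members tested, 0 had an adjusted p under 0.05 in limma, as did 0 of all 16397 genes, and the lowest adjusted p of a member was 0.779. At an unadjusted p under 0.05 there were 16 members higher and 1 lower in the pubertal goats. Over all genes tested, 3.51% were higher and 1.65% lower by this criterion. The stages did not overlap for 11 members, each of them higher in the pubertal goats, where 5.91% of all genes did so in that direction and 3.84% in the other. In 32 of the 41 members the log2 fold change was above 0, against 49.8% of all genes. It exceeded 0.5 in 15 members, against 2.43% of all genes, and was under -0.5 in 0 members. The median log2 fold change was 0.36 over the members and -0.00065 over all genes.

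Much of the size of the difference came with a single library. Pubertal replicate 3 was the highest library for 28 of the 41 members, including all 16 of those higher at an unadjusted p under 0.05, while it was the highest for 22.0% of all genes. Prepubertal replicate 1 was the lowest for 21 members, against 15.6% of all genes. Without pubertal replicate 3, there were 10 members higher at an unadjusted p under 0.05, beside 2.69% of all genes, and the median log2 fold change of the members was 0.19. Without prepubertal replicate 1, there were 8 members higher, beside 2.06% of all genes. The other libraries, left out in turn, gave between 13 and 21 members, beside 2.91% to 5.99% of all genes. The highest count and the highest share both came without pubertal replicate 1.

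**Figure D1:**
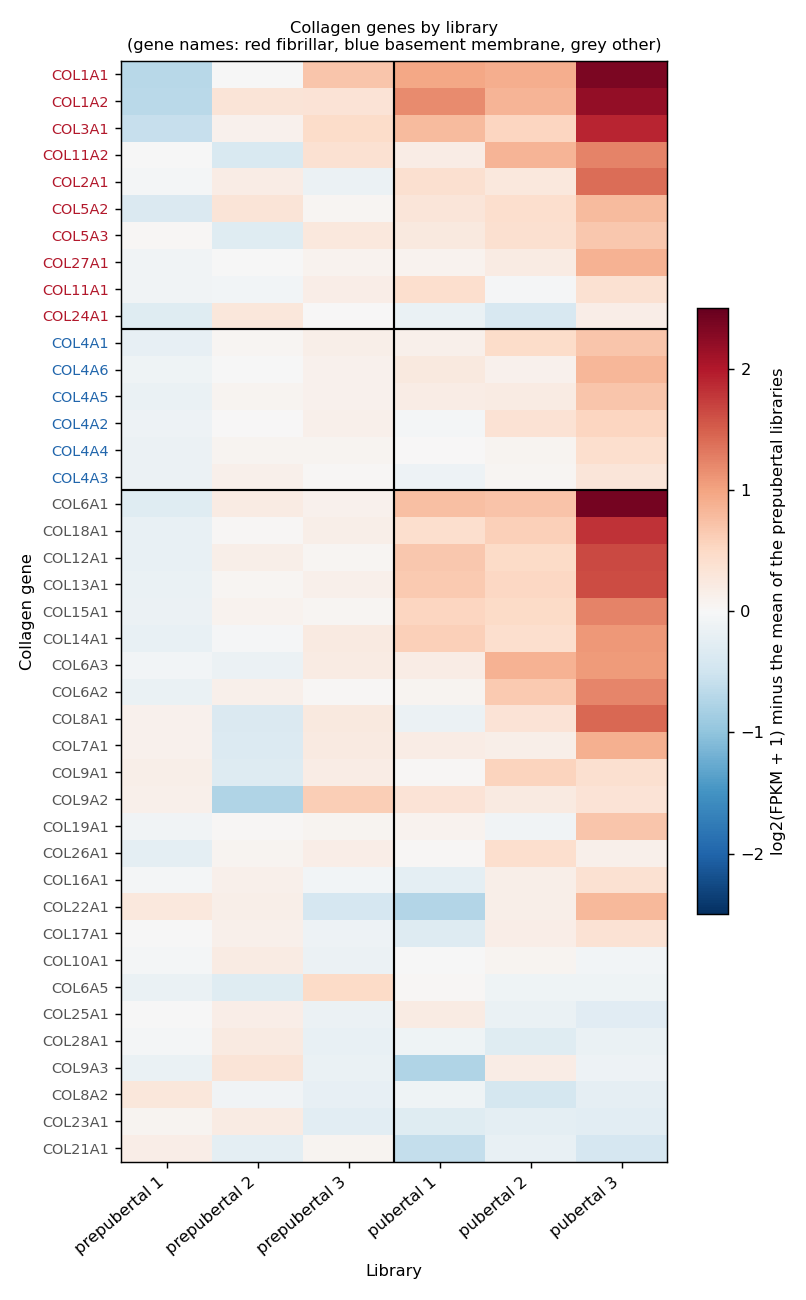
Expression of the 41 collagen genes tested (rows, grouped by class) in the 6 libraries (columns), as log2(FPKM + 1) minus the mean of the 3 prepubertal libraries. The column of pubertal replicate 3 is the highest for 28 genes, and the upper rows of the fibrillar and other classes are above 0 in all 3 pubertal libraries.

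Of the 3 classes, the fibrillar collagens had the largest ratio between the stages. Their summed FPKM was 122, 108 and 224 in pubertal replicates 1, 2 and 3, and 55.5, 79.2 and 89.9 in prepubertal replicates 1, 2 and 3. Each pubertal library lay above each prepubertal one, at a mean of 151 ± 63.7 against 74.9 ± 17.6 FPKM (SD, n = 3 each), a ratio of 2.02, or 1.53 without pubertal replicate 3. Of the 10 fibrillar members, 7 were higher at an unadjusted p under 0.05 and 0 lower, beside 3.51% and 1.65% of all genes. There were 3 higher without pubertal replicate 3 and 2 without prepubertal replicate 1, beside 2.69% and 2.06% of all genes. The median log2 fold change was 0.60, and 0.35 without pubertal replicate 3.

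COL1A2 (NCBI gene 100860940) encodes a chain of type I collagen, the main collagen of fibrous tissue. It was at 46.5, 36.4 and 94.4 FPKM in pubertal goats 1, 2 and 3, against 12.0, 25.2 and 25.5 FPKM in prepubertal goats 1, 2 and 3. The stages did not overlap, with a log2 fold change of 1.41 (standard error, SE, 0.38, limma adjusted p = 0.779), and 1.02 without pubertal replicate 3. COL1A1 (NCBI gene 100860828), which encodes the other type I chain, was at 9.44, 9.13 and 26.6 FPKM in pubertal goats 1, 2 and 3, against 2.33, 4.37 and 7.68 FPKM in prepubertal goats 1, 2 and 3. Its pubertal values also lay above all prepubertal values, and its log2 fold change was 1.41 (SE 0.45, limma adjusted p = 0.808), the 30th highest of all genes tested, and 0.94 without pubertal replicate 3. COL3A1 (NCBI gene 100860938) encodes type III collagen, which forms mixed fibrils with type I in vessel walls. It was at 15.2, 12.7 and 33.9 FPKM in pubertal goats 1, 2 and 3, against 5.28, 9.17 and 12.0 FPKM in prepubertal goats 1, 2 and 3. The stages did not overlap here either, although prepubertal replicate 3 came close to pubertal replicate 2 (log2 fold change 1.08, SE 0.37, limma adjusted p = 0.870, and 0.67 without pubertal replicate 3).

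Type V collagen starts and limits the growth of type I fibrils. COL5A2 was at 13.9, 15.1 and 19.98 FPKM in pubertal goats 1, 2 and 3, against 8.39, 14.2 and 11.5 FPKM in prepubertal goats 1, 2 and 3, with prepubertal replicate 2 inside the pubertal range. COL5A3 was at 10.5, 11.6 and 14.4 FPKM in pubertal goats 1, 2 and 3, against 8.88, 6.84 and 10.5 FPKM in prepubertal goats 1, 2 and 3, so that the stages met at 10.5 FPKM. Their log2 fold changes were 0.50 and 0.44. COL5A2 and COL3A1 are neighbours with no annotated gene between them in the RefSeq annotation of ARS1.2.

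The cartilage-type fibrillar collagens are those of types II and XI. COL11A1 was the second most abundant fibrillar member, at 19.5, 14.1 and 19.1 FPKM in pubertal goats 1, 2 and 3, against 13.5, 13.7 and 16.2 FPKM in prepubertal goats 1, 2 and 3. The stages overlapped, with means of 17.6 ± 3.02 and 14.5 ± 1.495 FPKM (SD, n = 3 each) and a log2 fold change of 0.25 (SE 0.14). COL11A2 was at 2.36, 4.305 and 6.02 FPKM in pubertal goats 1, 2 and 3, against 1.94, 1.27 and 2.86 FPKM in prepubertal goats 1, 2 and 3, also with overlap. COL2A1, the main collagen of cartilage, was at 2.098, 1.83 and 5.14 FPKM in pubertal goats 1, 2 and 3, against 1.26, 1.67 and 1.13 FPKM in prepubertal goats 1, 2 and 3, without overlap. COL11A2 and COL2A1 had log2 fold changes of 0.76 and 0.69, or 0.52 and 0.34 without pubertal replicate 3. The markers of cartilage and bone were low, with 9 genes summing to between 5.29 and 12.5 FPKM, again highest in pubertal replicate 3. The remaining fibrillar members were COL27A1, with a log2 fold change of 0.39 that was 0.15 without pubertal replicate 3, and COL24A1, which was the only fibrillar member below 0 with all 6 libraries (-0.13, and 0.02 at the highest with single libraries left out).

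**Figure D2:**
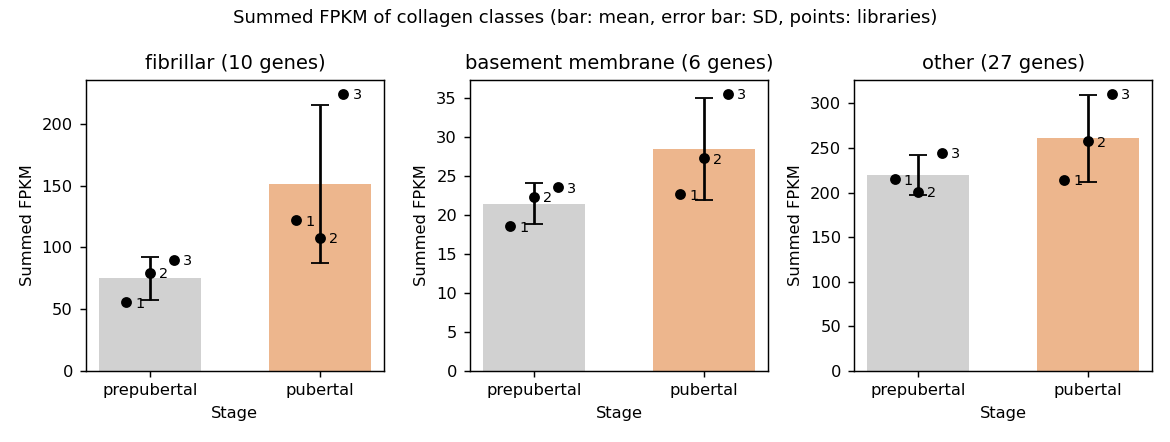
Summed FPKM of the fibrillar, basement membrane and other collagens in each stage. Bars are means of 3 libraries with SD, and points are libraries, marked with their replicate numbers. Only the fibrillar class has all 3 pubertal libraries above all 3 prepubertal ones (107.6 FPKM or more against 89.9 FPKM or less).

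The basement membrane collagens had smaller differences. Their 6 genes summed to 22.7, 27.3 and 35.6 FPKM in pubertal goats 1, 2 and 3, against 18.6, 22.3 and 23.5 FPKM in prepubertal goats 1, 2 and 3. Pubertal replicate 1 fell inside the prepubertal range, and the means of 28.5 ± 6.54 and 21.5 ± 2.58 FPKM (SD, n = 3 each) gave a ratio of 1.33, or 1.16 without pubertal replicate 3. Each of the 6 genes was highest in pubertal replicate 3 and lowest in prepubertal replicate 1. At an unadjusted p under 0.05 there was 1 member, COL4A1, beside 3.51% of all genes. There were 0 when pubertal replicate 3, prepubertal replicate 1 or prepubertal replicate 2 was left out. The median log2 fold change was 0.32, and 0.16 without pubertal replicate 3.

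COL4A1 (NCBI gene 102171079) and COL4A2 (NCBI gene 102171347) encode the chains found in nearly every basement membrane, those of brain vessels included. COL4A1 was at 6.51, 8.45 and 10.2 FPKM in pubertal goats 1, 2 and 3, against 5.01, 6.16 and 6.67 FPKM in prepubertal goats 1, 2 and 3. Pubertal replicate 1 lay just under prepubertal replicate 3, and the log2 fold change was 0.42 (SE 0.17, limma adjusted p = 0.938). COL4A2 was at 6.51, 8.93 and 10.3 FPKM in pubertal goats 1, 2 and 3, against 6.08, 6.81 and 7.40 FPKM in prepubertal goats 1, 2 and 3, with a log2 fold change of 0.29 (SE 0.16), or 0.16 without pubertal replicate 3. Both genes, neighbours in the RefSeq annotation, kept nearly the same level in each library.

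The other type IV chains form networks found in fewer tissues. COL4A5 was at 4.59, 4.61 and 6.88 FPKM in pubertal goats 1, 2 and 3, against 3.33, 4.13 and 4.25 FPKM in prepubertal goats 1, 2 and 3, the only type IV gene without overlap between the stages (log2 fold change 0.36, limma adjusted p = 0.962, and 0.20 without pubertal replicate 3). COL4A6 was at 1.79, 1.53 and 3.18 FPKM in pubertal goats 1, 2 and 3, against 1.19, 1.34 and 1.55 FPKM in prepubertal goats 1, 2 and 3. Here pubertal replicate 2 fell below prepubertal replicate 3, and the log2 fold change of 0.39 became 0.17 without pubertal replicate 3. COL4A4 was at 2.03, 2.18 and 3.03 FPKM in pubertal goats 1, 2 and 3, against 1.74, 2.18 and 2.15 FPKM in prepubertal goats 1, 2 and 3. COL4A3 was at 1.25, 1.56 and 2.04 FPKM in pubertal goats 1, 2 and 3, against 1.22, 1.68 and 1.51 FPKM in prepubertal goats 1, 2 and 3. The stages overlapped in COL4A4 and COL4A3. Without pubertal replicate 3, the log2 fold change went from 0.17 to 0.04 for COL4A4 and from 0.08 to -0.04 for COL4A3.

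The share of the collagen FPKM held by each class was set beside the sums. Fibrillar collagens held 34.0%, 27.4% and 39.3% in pubertal and 19.2%, 26.2% and 25.1% in prepubertal replicates 1, 2 and 3, without overlap. The basement membrane share ran from 6.23% to 6.95% in pubertal and from 6.43% to 7.38% in prepubertal libraries, so it overlapped. The share of the other collagens was 59.9% ± 5.58 in pubertal and 69.7% ± 4.15 in prepubertal libraries (SD, n = 3 each). The difference between the classes was not tested, since the genes were chosen with these data known.

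The 27 other collagens were divided by kind. They summed to 261 ± 48.5 FPKM in pubertal and 220 ± 22.5 FPKM in prepubertal libraries (SD, n = 3 each), a ratio of 1.19, with overlap. Of the 25 tested, 8 were higher and 1 lower at an unadjusted p under 0.05, beside 3.51% and 1.65% of all genes, and 7 were higher without pubertal replicate 3. The median log2 fold change was 0.23, or 0.10 without that library.

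Type VI collagen forms beaded filaments close to basement membranes and is made mostly by fibroblasts and mural cells. COL6A1 (NCBI gene 102191085) was at 3.35, 3.29 and 12.6 FPKM in pubertal goats 1, 2 and 3, against 1.10, 1.98 and 1.81 FPKM in prepubertal goats 1, 2 and 3. The stages did not overlap, and the log2 fold change of 1.28 (SE 0.42, limma adjusted p = 0.824) became 0.73 without pubertal replicate 3. COL6A2 was at 9.52, 14.7 and 22.2 FPKM in pubertal goats 1, 2 and 3, against 7.91, 9.91 and 9.21 FPKM in prepubertal goats 1, 2 and 3. COL6A3, whose chain is the largest of this type, was at 2.86, 5.16 and 6.06 FPKM in pubertal goats 1, 2 and 3, against 2.22, 2.08 and 2.94 FPKM in prepubertal goats 1, 2 and 3. In both genes pubertal replicate 1 fell inside the prepubertal range, and the log2 fold changes were 0.65 and 0.70, or 0.37 and 0.52 without pubertal replicate 3. COL6A5 did not follow them, with pubertal values between 0.298 and 0.434 FPKM and prepubertal values between 0.137 and 0.955 FPKM.

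The multiplexins of types XV and XVIII are basement membrane zone collagens, and the end of the type XVIII chain is the source of endostatin. COL18A1 (NCBI gene 102174703) was at 5.41, 6.26 and 15.8 FPKM in pubertal goats 1, 2 and 3, against 3.22, 3.91 and 4.28 FPKM in prepubertal goats 1, 2 and 3. COL15A1 (NCBI gene 100860925) was at 1.19, 1.11 and 2.58 FPKM in pubertal goats 1, 2 and 3, against 0.377, 0.620 and 0.557 FPKM in prepubertal goats 1, 2 and 3. Neither gene overlapped between the stages. The log2 fold changes were 0.95 for COL18A1 (SE 0.33, limma adjusted p = 0.870) and 0.75 for COL15A1 (SE 0.21, limma adjusted p = 0.795), and 0.51 and 0.50 without pubertal replicate 3. With these genes counted among the basement membrane collagens, the median of that class was 0.38 and its ratio of sums 1.52.

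Among the fibril-associated collagens, types XII and XIV bind the surface of type I fibrils. COL12A1 (NCBI gene 102188405) was at 6.96, 5.94 and 14.7 FPKM in pubertal goats 1, 2 and 3, against 3.37, 4.51 and 4.12 FPKM in prepubertal goats 1, 2 and 3. COL14A1 (NCBI gene 102178089) was at 5.45, 4.67 and 8.03 FPKM in pubertal goats 1, 2 and 3, against 2.72, 3.14 and 3.98 FPKM in prepubertal goats 1, 2 and 3. The stages were apart in both, with log2 fold changes of 0.94 (standard error 0.28) and 0.70 (standard error 0.19), each with an adjusted p of 0.795 from limma, and 0.58 and 0.51 without pubertal replicate 3. COL21A1 lay the other way, at 3.43, 4.84 and 3.99 FPKM in pubertal goats 1, 2 and 3, against 6.51, 4.61 and 6.004 FPKM in prepubertal goats 1, 2 and 3. It was the only member lower at an unadjusted p under 0.05, though prepubertal replicate 2 lay inside the pubertal range (log2 fold change -0.40, SE 0.16, limma adjusted p = 0.928). COL16A1 was at 13.2, 17.5 and 20.8 FPKM in pubertal goats 1, 2 and 3, against 15.2, 17.2 and 14.9 FPKM in prepubertal goats 1, 2 and 3, with overlap and a log2 fold change of 0.10, which was -0.04 without pubertal replicate 3.

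The type IX chains, abundant in every library, were not ordered by stage. COL9A2 (NCBI gene 102186825) was at 82.0, 75.0 and 81.8 FPKM in pubertal goats 1, 2 and 3, against 70.0, 37.9 and 98.9 FPKM in prepubertal goats 1, 2 and 3. COL9A3 (NCBI gene 102188580) was at 30.2, 59.4 and 47.6 FPKM in pubertal goats 1, 2 and 3, against 45.9, 65.2 and 46.2 FPKM in prepubertal goats 1, 2 and 3. COL9A1 (NCBI gene 102185378) was at 16.6, 24.3 and 21.7 FPKM in pubertal goats 1, 2 and 3, against 18.1, 12.8 and 18.6 FPKM in prepubertal goats 1, 2 and 3. The stages overlapped in all of them, and COL9A2 and COL9A3 were opposite in prepubertal replicate 2, where COL9A2 was lowest and COL9A3 highest of the 6 libraries. Their log2 fold changes were 0.31, -0.23 and 0.32, with standard errors of 0.29, 0.24 and 0.18.

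Transmembrane collagens are anchored in the membrane of the cell that makes them. COL13A1 (NCBI gene 102191492), known from cell adhesion sites and the neuromuscular junction, was at 2.14, 1.86 and 5.20 FPKM in pubertal goats 1, 2 and 3, against 0.794, 1.07 and 1.18 FPKM in prepubertal goats 1, 2 and 3. The stages did not overlap (log2 fold change 0.93, SE 0.27, limma adjusted p = 0.795, and 0.58 without pubertal replicate 3). COL25A1, a neuronal collagen, was at 9.60 to 13.8 FPKM in pubertal and 10.6 to 13.3 FPKM in prepubertal libraries. COL23A1 and COL17A1 had log2 fold changes of -0.28 and 0.07, or -0.28 and -0.08 without pubertal replicate 3, both with overlapping stages. Of the transmembrane members, then, only COL13A1 was higher at an unadjusted p under 0.05.

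The remaining members overlapped between the stages. COL8A1, a network collagen of vessel walls, reached 14.6 FPKM in pubertal replicate 3, while the others spanned 3.49 to 6.32 FPKM. Its log2 fold change of 0.54 became 0.10 when that library was left out. COL8A2 had a log2 fold change of -0.26, COL10A1 -0.0012, COL7A1 0.40, COL19A1 0.23, COL22A1 0.07, COL26A1 0.19 and COL28A1 -0.19. COL7A1 had 0.16, COL19A1 -0.0025 and COL22A1 -0.30 when pubertal replicate 3 was left out.

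**Figure D3:**
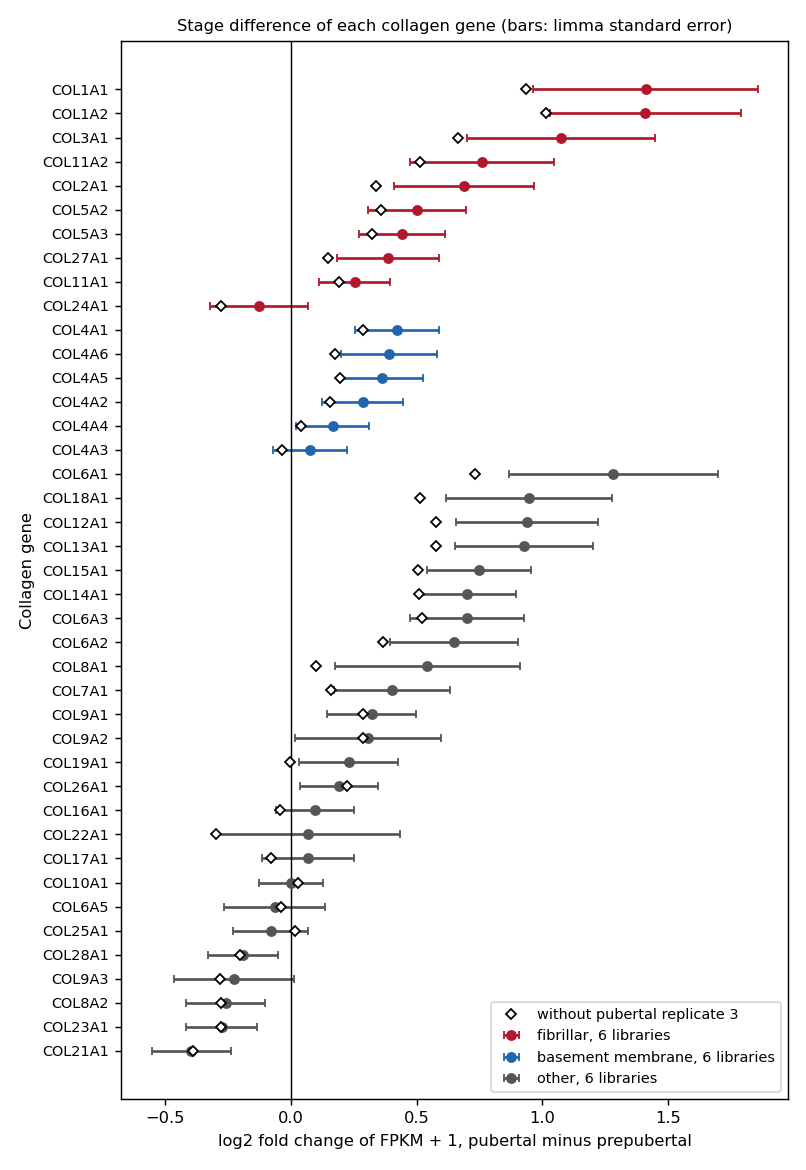
The log2 fold change of FPKM + 1 between the stages (horizontal axis, pubertal minus prepubertal) for each of the 41 collagen genes tested, with limma's standard error over 6 libraries, and the value without pubertal replicate 3 (open diamonds). COL1A1 and COL1A2 have 1.41 each, and most diamonds lie closer to 0 than the filled points.

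Chains of the same collagen were compared within each library, as FPKM is scaled by transcript length. Type I trimers usually hold more of the COL1A1 chain than of the COL1A2 chain, yet the FPKM of COL1A2 was 3.32 to 5.77 times that of COL1A1. The ratio was 4.15 ± 0.701 in pubertal and 4.75 ± 1.27 in prepubertal libraries (SD, n = 3 each), so it overlapped. COL4A2 was 0.9998 to 1.06 times COL4A1 in the pubertal and 1.11 to 1.21 times in the prepubertal libraries, a narrow range without overlap. COL4A4 was 1.30 to 1.63 times COL4A3, and COL4A5 was 2.17 to 3.08 times COL4A6, over all 6 libraries. The type VI chains were less even. COL6A2 was 1.76 to 4.48 times COL6A1 in the pubertal and 4.999 to 7.21 times in the prepubertal libraries, the lowest value being that of pubertal replicate 3. These ratios were chosen by gene pair and were not tested.

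**Figure D4:**
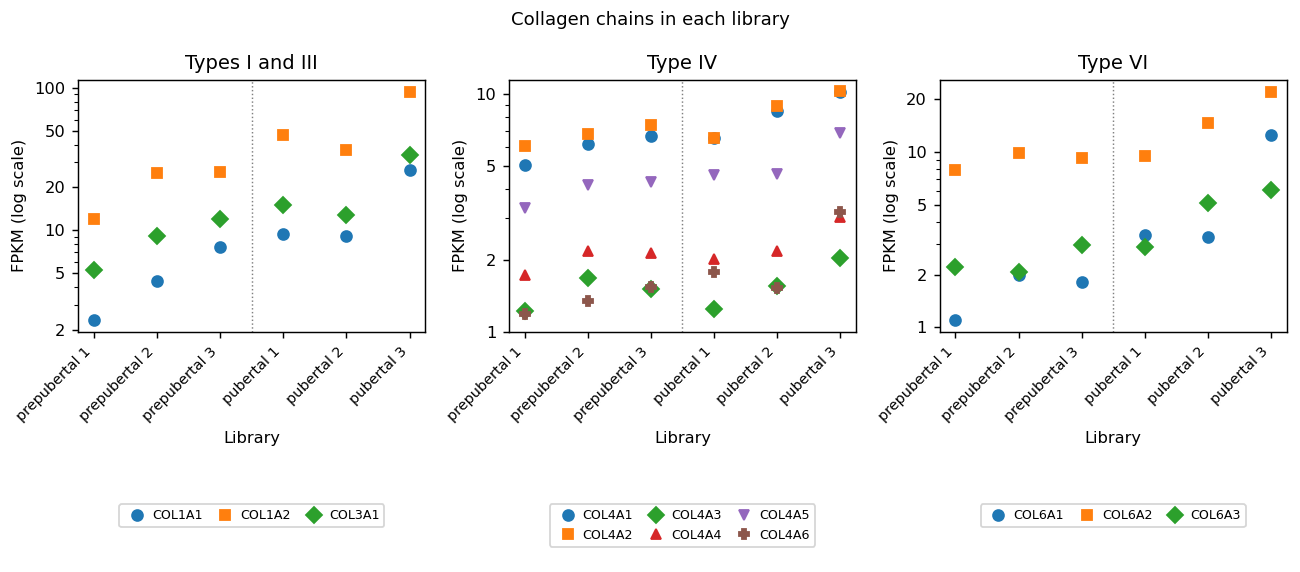
FPKM (log scale) of the chains of collagen types I and III, IV and VI in each library. COL4A1 and COL4A2 stay within 1.21 times of each other, while COL6A1 lies closest to COL6A2 in pubertal replicate 3, where their ratio is 1.76.

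Of the 43 genes, 37 had 1 transcript in the table and 6 had more, of which 5 had several above the minimum mean. The main COL11A1 transcript, XM_005678025.2, was at 15.1, 13.8 and 15.8 FPKM in pubertal goats 1, 2 and 3, against 11.7, 12.0 and 12.3 FPKM in prepubertal goats 1, 2 and 3, without overlap (log2 fold change 0.29, limma adjusted p = 0.966 by transcript), whereas the sum over its transcripts overlapped. Its second transcript, XM_013962591.1, varied from 0.30 to 4.42 FPKM with no order by stage. COL8A1 transcript XM_005674831.2 was at 3.25 FPKM in pubertal replicate 3 and at or near 0 in the other 5 libraries. COL4A5 transcript XM_005700225.2 was near 0 in prepubertal replicate 1, at 5.21e-05 FPKM, where the other transcript, XM_005700226.1, was at 3.33 FPKM.

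Genes that make, bind or degrade collagen were taken from lists of known function. In the list for synthesis, secretion and crosslinking, 5 of 30 tested genes were higher and 0 lower at an unadjusted p under 0.05, beside 3.51% and 1.65% of all genes, the background of each list below. LOX, which crosslinks collagen, was at 1.63, 2.63 and 3.86 FPKM in pubertal goats 1, 2 and 3, against 1.11, 0.944 and 1.08 FPKM in prepubertal goats 1, 2 and 3, without overlap. Its log2 fold change was 0.81, or 0.60 without pubertal replicate 3. TLL1 and PCOLCE, a procollagen proteinase and an enhancer of such proteinases, FKBP10, a prolyl isomerase, and SERPINH1, the collagen chaperone HSP47, had log2 fold changes of 0.46, 0.95, 0.53 and 0.49. PCOLCE had 0.48 and FKBP10 0.33 without pubertal replicate 3, when 3 genes of the list were higher. PPIB and P4HB, the most abundant genes of the list and general enzymes of protein folding, had -0.02 and 0.06. The median over the list was 0.10.

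Among the collagen receptors, 2 of 9 tested genes were higher and 0 lower by the same criterion. They were MRC2, an endocytic receptor for collagen, and DDR2, a kinase activated by fibrillar collagen, with log2 fold changes of 0.71 and 0.26, or 0.43 and 0.17 without pubertal replicate 3, when 1 of them was higher by that criterion. The integrin subunit ITGB1 and the kinase DDR1, the most abundant of this list, had 0.13 and 0.19. In the list of degrading enzymes and their inhibitors, 3 of 9 tested were higher and 0 lower. MMP2, a gelatinase, was at 9.76, 9.75 and 14.4 FPKM in pubertal goats 1, 2 and 3, against 5.09, 5.23 and 6.94 FPKM in prepubertal goats 1, 2 and 3, without overlap (log2 fold change 0.86, SE 0.18, limma adjusted p = 0.660). MMP14, which activates MMP2, and TIMP3, an inhibitor of metalloproteinases bound to the matrix, had 0.62 and 0.31, and TIMP2, the next most abundant gene, had 0.01. MMP14 had 0.39 without pubertal replicate 3, when 2 genes of the list were higher.

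Of the fibril-binding proteoglycans and glycoproteins, 3 of 13 tested were higher and 0 lower. DCN, or decorin, which binds type I fibrils, was at 48.3, 40.3 and 86.9 FPKM in pubertal goats 1, 2 and 3, against 16.1, 28.2 and 26.1 FPKM in prepubertal goats 1, 2 and 3. The stages were apart, with a log2 fold change of 1.24 (SE 0.30, limma adjusted p = 0.733), and 0.92 without pubertal replicate 3. BGN and FN1, biglycan and fibronectin, had 1.05 each, and OGN, osteoglycin, had 0.86. Without pubertal replicate 3 they had 0.51, 0.49 and 0.27, and FN1 was no longer at an unadjusted p under 0.05. In this list 12 of the 13 tested genes were highest in pubertal replicate 3, and the median of 0.69 became 0.16 without it.

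Other components of basement membranes had 1 of 16 tested genes higher and 0 lower, a share near the 3.51% of all genes. The gene was NID1, which links laminin to type IV collagen, at 5.89, 5.76 and 7.83 FPKM in pubertal goats 1, 2 and 3, against 3.01, 3.83 and 4.64 FPKM in prepubertal goats 1, 2 and 3. SPARC, a collagen-binding matrix protein also made by astrocytes, lay the other way at 1192, 1251 and 1210 FPKM in pubertal goats 1, 2 and 3, against 1708, 1388 and 1298 FPKM in prepubertal goats 1, 2 and 3 (log2 fold change -0.26). The stages of SPARC did not overlap. LAMA1, a laminin chain, had -0.09, and the median of the list was 0.21. Over the 5 lists together, 14 of 77 tested genes were higher and 0 lower at an unadjusted p under 0.05, beside 3.51% and 1.65% of all genes. Without pubertal replicate 3, 9 were higher, beside 2.69% of all genes.

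Markers of the cells that could carry collagen mRNA are given beside these values, and their part in the results was not tested. Of the leptomeningeal fibroblast markers, 2 of 15 tested were higher and 0 lower at an unadjusted p under 0.05. The median log2 fold change was 0.81, or 0.22 without pubertal replicate 3, when FOXC2 was not tested. Their sum ran from 86.3 to 291 FPKM in pubertal and from 80.0 to 86.1 FPKM in prepubertal libraries, with no gene of the list at 0 in all libraries, though TCF21 and FOXC2 were listed at 0 in some. PDGFRA, also a gene of oligodendrocyte precursors, lay between 52.1 and 59.4 FPKM in all libraries. It made up most of the sum outside pubertal replicate 3. ALDH1A2, an enzyme of retinoic acid synthesis in meninges, was at 2.14, 1.76 and 5.24 FPKM in pubertal goats 1, 2 and 3, against 0.634, 1.16 and 0.868 FPKM in prepubertal goats 1, 2 and 3, without overlap. TBX18, a transcription factor, had a log2 fold change of 0.70, or 0.34 without pubertal replicate 3, and IGFBP2, the second most abundant, reached 73.6 FPKM in pubertal replicate 3 and spanned 2.41 to 5.18 FPKM elsewhere.

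Pericyte and smooth muscle markers had 4 of 12 tested genes higher and 0 lower, and their sum ran from 147 to 386 FPKM in pubertal and from 100.03 to 123 FPKM in prepubertal libraries. The 4 genes were NOTCH3, MYH11, RGS5 and TAGLN, with log2 fold changes of 0.42, 1.76, 0.50 and 1.58, and none of the list was at 0 in any library. Without pubertal replicate 3, 6 genes were higher, MYH11 had 1.007 and TAGLN 0.82, and the median of the list went from 0.47 to 0.33. TAGLN, a smooth muscle protein, was at 19.1, 22.2 and 105 FPKM in pubertal goats 1, 2 and 3, against 9.79, 11.7 and 12.5 FPKM in prepubertal goats 1, 2 and 3, highest by far in pubertal replicate 3. Endothelial markers had 2 of 14 tested higher, VWF and SLC2A1, with 0.58 and 0.25, and sums of 145 to 185 FPKM in pubertal and 128 to 148 FPKM in prepubertal libraries, with no gene at 0 in any library. PECAM1 had 0.29, and 1 gene was higher without pubertal replicate 3.

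Choroid plexus markers had 0 of 10 tested genes at an unadjusted p under 0.05 in either direction, and their sum ran from 13.8 to 328 FPKM in pubertal and from 13.6 to 65.6 FPKM in prepubertal libraries. CLIC6 and KCNE2 were listed at 0 in some of the libraries. TTR and PRLR were the most abundant, with log2 fold changes of 0.21 and 0.02. The value of TTR turned to -1.87 without pubertal replicate 3. Pars tuberalis and anterior pituitary markers had 3 of 9 tested higher. These were CGA, TSHB and PITX1, with log2 fold changes of 2.98, 1.19 and 0.51. Without pubertal replicate 3 there were 2, beside 2.69% of all genes, and GH1, FSHB and POU1F1 were then not tested. The list summed to 60.8 to 74.9 FPKM in pubertal and 11.7 to 25.2 FPKM in prepubertal libraries. Of the 9 tested, 5 were highest in pubertal replicate 3. Among these, GH1, FSHB and POU1F1 passed the minimum mean of 0.1 FPKM only through that library. Their place in that count was thus set by the filter. GH1 was at 7.79 FPKM there and listed at 0 in the others. FSHB and POU1F1 reached 1.09 and 0.539 FPKM there, and at most 0.142 and 0.0821 FPKM in other libraries. CGA and LHB were highest in pubertal replicate 2. TSHB, PITX1, GH1, POU1F1 and FSHB were listed at 0 in some libraries. Of the cartilage and bone markers 1 of 8 tested was higher, ALPL with 0.26, and BGLAP had 0.87. BGLAP had 0.47 without pubertal replicate 3, when 0 of the list were higher. Of the 9 hypothalamus markers tested, GNRH1 and POMC were higher with 0.85 and 1.83, AGRP was lower with -2.15, and PMCH had -0.53. Without pubertal replicate 3, POMC had 0.84 and was no longer at an unadjusted p under 0.05, and PMCH had -0.16. AGRP then had -2.56, and NPY went from -1.25 to -1.88. In that setting 1 gene of the list was higher and 2, AGRP and NPY, were lower at that p. Of all 16327 genes tested there, 439 were higher and 219 lower.

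**Figure D5:**
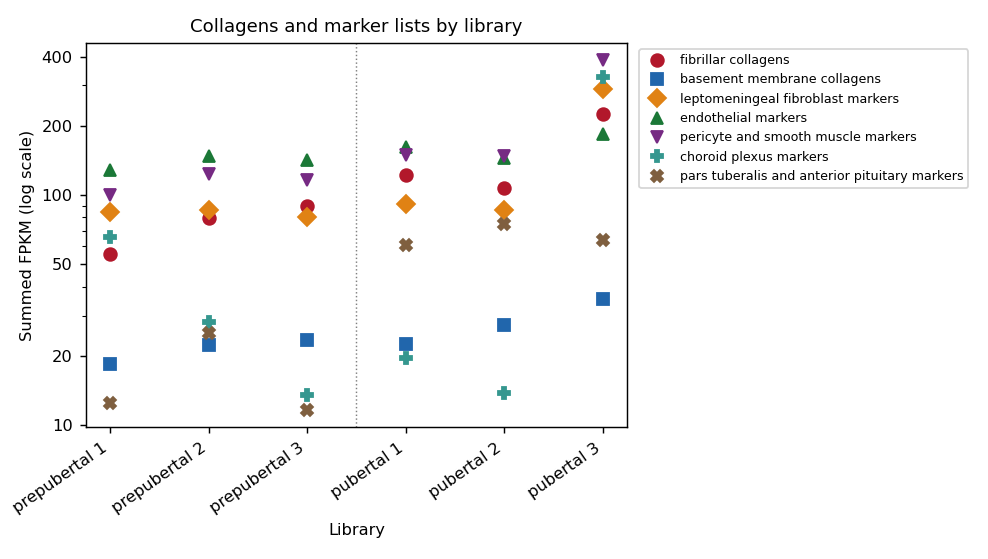
Summed FPKM (log scale) of the fibrillar and basement membrane collagens and of 5 lists of marker genes in each library. The fibroblast, smooth muscle and choroid plexus sums are highest in pubertal replicate 3 (291, 386 and 328 FPKM), as is the fibrillar collagen sum (224 FPKM). The fibrillar collagen, leptomeningeal fibroblast, pericyte and smooth muscle, and pituitary sums do not overlap between the stages. For the fibroblast markers the margin is small, at 86.3 FPKM or more in pubertal against 86.1 FPKM or less in prepubertal libraries. PDGFRA alone holds 52.1 to 59.4 FPKM of each fibroblast sum.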

How the data were processed

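Hypothalamus RNA of 6 goats was sequenced by the authors as strand-specific paired-end libraries after removal of ribosomal RNA. The authors used TopHat for alignment, Cufflinks 2.1.1 and Scripture for assembly, and deposited FPKM values per transcript and library, normalized for transcript length and mapped reads. The genome build is not given in the sources used here. A second deposited table pairs transcripts with genes and holds the transcript length as another number, the FPKM of each group, and fold changes, p-values and q-values of the authors' Cuffdiff comparison, which were not used. For 99.8% of transcripts, its group FPKM lay within 1% of the library mean computed here.

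FPKM were summed by gene. Symbols came from a RefSeq table of ARS1.2, which matched 19083 of 20225 genes (94.4%). limma 3.58.1 in R 4.3.3 (lmFit, eBayes with trend, two-sided) was fitted to log2(FPKM + 1) and tested on simulated data. Sums and figures were made in Python 3.11.15 with pandas 2.3.3, numpy 2.4.6 and matplotlib 3.10.9. With 3 libraries a stage, exact permutation cannot reach a p under 0.1 and was not run. FPKM hold no counts, so no count model or counting interval can be given. The replicates of a stage are separate goats.

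The members, the gene lists and the tests were chosen with earlier results of these data known. Values in every library were given for the 4 most abundant members of each class, the 15 members with the smallest p and the partner chains of types I, IV and VI. In each list, up to 5 genes with an unadjusted p under 0.05 and the 2 most abundant were named, except for 1 gene that is not reported here. COL2A1, LOX and other genes shown in every library beyond this rule, and GH1, FSHB, POU1F1, LHB and NPY, were chosen after their values were seen. The alternatives were another pseudocount, other minimum values, other scalings, no trend, a replicate block, the most abundant transcript of each gene, other class limits and leaving out each library. lncRNAs were not analysed here.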

Additional observations from a re-analysis of the deposited data

How the results depend on the processing

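None of the 41 collagen genes had an adjusted p under 0.05 in limma under the 14 alternatives, where the lowest was 0.247. Among all genes 1 passed with the replicate block and 0 to 4 with single libraries left out. The count of 16 members higher at an unadjusted p under 0.05 ran from 8 to 21 with single libraries left out. The 1 member lower became 2 with quantile normalization, 0 with the replicate block, 0 with the most abundant transcript of each gene and 0 to 1 without single libraries. Members with no overlap ran from 11 to 24 higher and from 0 to 3 lower without single libraries, and 1 was lower with quantile normalization. The share of all genes higher with no overlap also rose, from 5.91% to between 8.5% and 14.7% without single libraries. The 24 members and the 14.7% both came without pubertal replicate 1. All genes lower with no overlap went from 629 to between 1043 and 2993. All genes at that p, 575 higher and 271 lower, ran from 338 to 984 and from 164 to 1239 without single libraries, and were 462 and 377 with quantile normalization. Genes of the 5 collagen pathway lists, with 77 tested in the main fit, ran from 6 to 24 higher at that p. This range stands beside the 338 to 984 of all genes, which moved as well. Deviations from the stage mean had correlations of -0.0286, -0.107 and 0.0876 between same-numbered libraries. Between libraries of different numbers they ran from -0.128 to 0.170. These values gave no sign of pairing by number, but with 3 libraries a stage they cannot exclude it. The replicate block gave 19 members higher at an unadjusted p under 0.05 and 0 lower. With single libraries left out, the median log2 fold change ran from 0.35 to 0.72 for fibrillar, from 0.16 to 0.45 for basement membrane and from 0.10 to 0.30 for other collagens, lowest in each class without pubertal replicate 3. Of the single genes, 30 kept their sign under all alternatives, 26 of them higher, and 11 did not, none of these being among the 17 at an unadjusted p under 0.05. With no read counts, the depth behind low genes is unknown.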
